A study of Mus musculus with 30 samples.

Results

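The EGF receptor family and its ligands were followed across villi and crypts of mouse small intestine in which the genes Rb (probe sets listed as Rb1) and Myc had been deleted. The members were the receptors Egfr, Erbb2 and Erbb3 and the ligands Ereg, Areg, Epgn, Btc, Hbegf and Nrg1, each taken through the probe sets to which the platform annotation gives that single symbol. Of these 9 genes, 8 had such a probe set, out of 18194 genes on the array that did, and Areg was not analysed here. Where a gene had several probe sets, the probe set with the highest mean over the 30 arrays stood for it and the others were checked. Egfr had 7 probe sets, Erbb3, Btc and Hbegf had 2 each and the other members had 1.

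The arrays came from mice 2 months old, and tissue was taken 5 days after the deletion. A Cre that is inducible and intestine-specific (Ah-cre) removed Rb alone (Rb KO) or Rb together with Myc (Rb/Myc DKO, here DKO). The third genotype is called control and its alleles are not described further. Each genotype had 5 arrays of villi and 5 of crypts, 6 groups in all. The labels do not say that the 5 samples of a group are separate animals, so p-values measure the spread between these samples, which may be partly technical.

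The family consists of receptor tyrosine kinases at the cell surface that pair up when a ligand binds and then signal through the Ras, Raf and ERK cascade and through PI3 kinase. Erbb2 has no known ligand and acts as a partner of the other receptors, while Erbb3 has little kinase activity of its own and is a docking receptor for PI3 kinase. The ligands are made as membrane-bound precursors and are released by proteases, and in the intestine EGF receptor signalling is known for sustaining proliferation in the crypt.

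Rb1 and Myc were read first as a check of the labels. Rb1 lay between 9.14 and 10.21 on the log2 scale in control villi, between 8.19 and 8.34 in Rb KO villi and between 8.25 and 8.66 in DKO villi, and in crypts it was likewise lower on each mutant array than on each control array. Myc in crypts was 8.67 to 9.01 in DKO against 9.98 to 11.04 in Rb KO. In villi Myc was 6.49 to 6.94 in DKO, 6.98 to 7.48 in Rb KO and 6.38 to 7.89 in control. Each DKO villus array lay below each Rb KO villus array, but this difference did not pass the threshold (adjusted p = 0.143, limma). The tissue labels were read against their defining markers in the controls: the stem cell gene Lgr5 averaged 6.66 in villi and 9.11 in crypts, Olfm4 10.17 and 13.91, and the enterocyte gene Apoa4 14.78 and 13.36. The tissues appear to have been normalized separately (array medians of 6.28 to 6.34 in villi and 6.67 to 6.73 in crypts), so these levels are set side by side without a test and genotypes were compared within each tissue. Since the samples are bulk tissue, a smaller number of cells that express a gene and a smaller amount of its RNA per cell cannot be told apart.

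The members that passed the threshold in crypts in the filtered fit described below were Erbb2, Erbb3 and Btc, though some of these calls were lost in other settings. Ereg, Areg, Epgn and Btc lie next to each other on mouse chromosome 5 as 4 consecutive protein-coding genes in the RefSeq annotation, Erbb3 lies on chromosome 10, and Egfr and Erbb2 lie on chromosome 11. The RefSeq promoter table (GRCm38.p6) held 5 of the 9 members, among them Erbb2 and Btc, which are shown because Erbb2 was lower in Rb KO crypts and Btc higher in DKO crypts. The window is the 250 bases before the annotated start of the gene, written 5′ to 3′ on the strand of the gene, with CG dinucleotides in capitals. Erbb2 is at chr11:98412234-98412483 on the plus strand and Btc at chr5:91402995-91403244 on the minus strand.
Erbb2: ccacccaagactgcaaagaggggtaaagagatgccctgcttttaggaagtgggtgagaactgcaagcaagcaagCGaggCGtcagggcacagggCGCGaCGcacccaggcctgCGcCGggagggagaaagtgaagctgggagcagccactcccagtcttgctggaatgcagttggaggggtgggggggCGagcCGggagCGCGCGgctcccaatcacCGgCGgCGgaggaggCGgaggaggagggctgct
Btc: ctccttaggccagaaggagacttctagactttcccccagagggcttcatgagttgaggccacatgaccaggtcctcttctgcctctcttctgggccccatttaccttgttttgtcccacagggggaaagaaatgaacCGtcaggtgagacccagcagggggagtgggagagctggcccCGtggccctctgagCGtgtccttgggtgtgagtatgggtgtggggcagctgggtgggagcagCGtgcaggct
The Erbb2 window held 16 CG dinucleotides at a GC content of 66.0%, and 74.6% of the 32851 promoter windows of that length held fewer. The Btc window held 4 at a GC content of 59.6%, against a median of 6, and 37.8% of windows held fewer. Neither window contained, on either strand, the letters CACGTG (the core E-box that Myc and Max bind, found in 6.02% of all windows) or the E2F-type letters TTCCCGC (3.82%) and TTGGCGC (1.97%), which says only that these letters are not in these windows.

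Expression was fitted within each tissue across the 12736 genes whose mean exceeded the 30th percentile (6.03 on the log2 scale), with limma and Benjamini-Hochberg adjustment, two-sided, at an adjusted p of 0.05. Of the 8 measured members, 5 were above this filter: Egfr, Erbb2, Erbb3, Btc and Hbegf. Ereg, Epgn and Nrg1 lay below it and their values come from the same fit over all 18194 genes. In villi 1 of the 5 tested members was past the threshold between Rb KO and control, where 34.3% of all tested genes were, and 0 of 5 were past it between DKO and Rb KO (8.52% of all genes) or between DKO and control (19.3%). At an unadjusted p of 0.05, Egfr passed in the former and Btc in the latter of these comparisons. In crypts 2 of 5 were past it between Rb KO and control (12.1% of all genes), 1 of 5 between DKO and Rb KO (14.2%) and 2 of 5 between DKO and control (23.3%). With 5 members, none of these counts can be read as particular to the family. The comparisons share arrays, since control arrays serve both mutants and Rb KO arrays serve as a second reference for DKO, so their values stand side by side below.

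**Figure D1:**
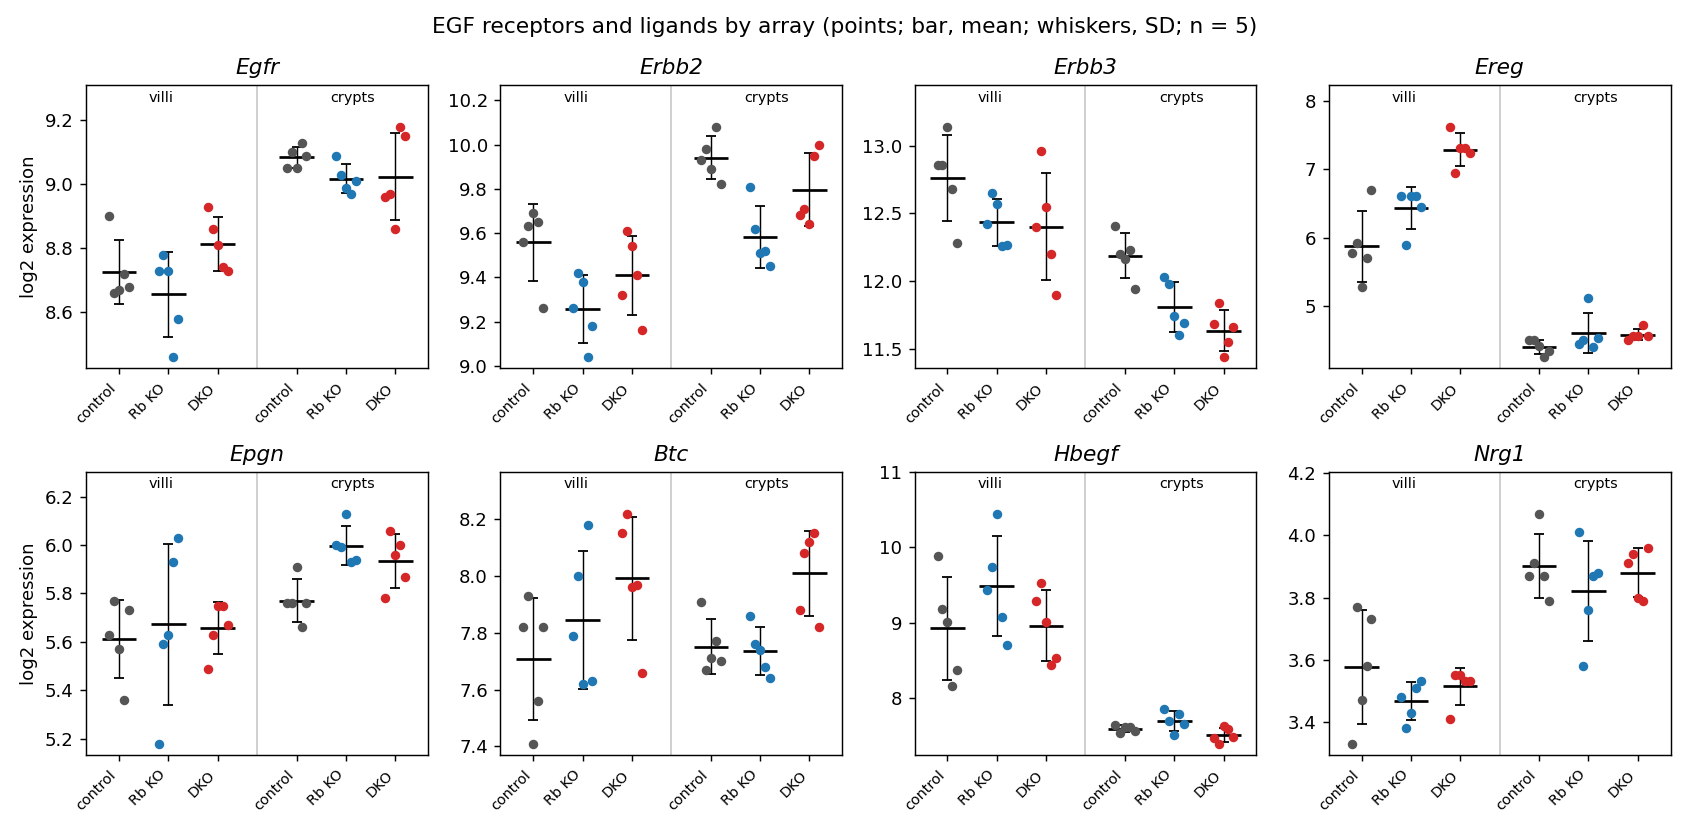
The log2 expression of the 8 measured members is plotted for each of the 30 arrays, by genotype in villi (left) and crypts (right) of each panel, with the mean as a bar and the SD as whiskers (n = 5). Ereg is higher on each DKO villus array (6.94 to 7.62) than on any other villus array, and Erbb3 is lower on each DKO crypt array than on each control crypt array. Vertical axes differ between panels and do not start at 0.

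Erbb2, the partner receptor without a ligand of its own, was lower in Rb KO than in control crypts and villi. In crypts its log2 values were 9.93, 9.98, 9.89, 10.08 and 9.82 for control arrays, 9.81, 9.62, 9.51, 9.52 and 9.45 for Rb KO arrays and 9.68, 9.71, 9.64, 9.95 and 10 for DKO arrays. Each Rb KO value lay below each control value, while the DKO arrays spanned both, with replicates 4 and 5 at the level of the controls. Erbb2 fell by 0.36 ± 0.08 (SE, n = 5 in each group, adjusted p = 0.0105), a ratio of 0.780. DKO crypts differed from Rb KO crypts by 0.22 ± 0.08 (adjusted p = 0.101) and from control crypts by −0.14 (adjusted p = 0.248). In villi the values were 9.56, 9.63, 9.69, 9.65 and 9.26 for control arrays, 9.26, 9.42, 9.38, 9.04 and 9.18 for Rb KO arrays and 9.32, 9.61, 9.54, 9.41 and 9.16 for DKO arrays. The groups overlapped through control replicate 5, which was as low as the Rb KO arrays. Erbb2 was lower in Rb KO, with a difference of −0.30 ± 0.10 from control (adjusted p = 0.032), and DKO villi differed from control villi by −0.15 (adjusted p = 0.321). Without Rb KO animals 4 and 5, whose Erbb2 values were among the lowest, the difference came to −0.20 for villi (adjusted p = 0.202), and for crypts it came to −0.30 (adjusted p = 0.0878). The villus call was also lost on leaving out any of control replicates 2, 3 and 4 or Rb KO replicates 1, 4 and 5 (adjusted p up to 0.0866), whereas the crypt call passed in each of the 15 fits that left out 1 array.

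Erbb3, the docking receptor for PI3 kinase, was lower in both mutants in crypts. Its crypt values were 12.41, 12.20, 12.16, 12.23 and 11.94 for control arrays, 12.03, 11.98, 11.74, 11.60 and 11.69 for Rb KO arrays and 11.68, 11.84, 11.44, 11.55 and 11.66 for DKO arrays. Each DKO array was below each control array, and Rb KO replicates 1 and 2 overlapped the lowest control. Against control, Erbb3 fell by 0.56 ± 0.10 in DKO crypts (adjusted p = 8.5e-04), a ratio of 0.680, and fell by 0.38 ± 0.10 in Rb KO crypts (adjusted p = 0.021). DKO and Rb KO crypts differed by −0.18 (95% interval −0.39 to 0.04, adjusted p = 0.265). The call for DKO against control was kept in all alternatives run on genes (adjusted p up to 0.0143), among them the mean of both Erbb3 probe sets at −0.33, while the call for Rb KO was lost on leaving out Rb KO replicate 3, 4 or 5 (0.0538, 0.0610 and 0.0524) without Rb KO animals 4 and 5 together (−0.27, adjusted p = 0.165) and with all 30 arrays in the fit (0.133).

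The second Erbb3 probe set gave another picture. In crypts it averaged 7.37 ± 0.23 (SD, n = 5) for control, 7.17 ± 0.22 for Rb KO and 7.26 ± 0.17 for DKO, and neither difference from control passed (−0.20, adjusted p = 0.438, and −0.11, adjusted p = 0.660, in a fit over all 45101 probe sets). In villi it averaged 8.18 ± 0.30 for control, 7.16 ± 0.37 for Rb KO and 7.38 ± 0.38 for DKO, with every mutant array below every control array. There Erbb3 by this probe set fell by 1.02 ± 0.20 in Rb KO (adjusted p = 0.00133) and by 0.80 ± 0.20 in DKO (adjusted p = 0.0163), in fits where 21.1% and 9.56% of all probe sets were past the threshold. The first probe set differed in villi by −0.33 ± 0.18 and −0.37 ± 0.18 from control (adjusted p = 0.167 in each case), with overlapping groups. Both probe sets had lower means in each mutant than in control in either tissue, but they passed the test in different tissues. The cause of this disagreement was not tested.

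Egfr, the receptor for Ereg, Areg, Epgn, Btc and Hbegf, showed no difference past the threshold. Its crypt means were 9.09 ± 0.04 for control, 9.02 ± 0.05 for Rb KO and 9.03 ± 0.13 for DKO. The interval of the difference from control was −0.19 to 0.06 for Rb KO and −0.18 to 0.06 for DKO, so changes beyond about these sizes are outside the 95% intervals of this probe set. In villi the means were 8.73 ± 0.10, 8.65 ± 0.13 and 8.81 ± 0.08 in the same order, and the DKO arrays differed from the Rb KO arrays by 0.16 (adjusted p = 0.190). The other 6 Egfr probe sets did not move as a block. One averaged 6.76 for control, 7.22 for Rb KO and 7.17 for DKO villi but 8.28, 8.11 and 7.94 in crypts, and another 7.40, 7.70 and 7.72 in villi but 8.63, 8.29 and 8.20 in crypts. Both had higher means in mutant villi and lower means in mutant crypts, and none of the 7 passed singly in any comparison. In DKO against control crypts these 2 differed by −0.34 ± 0.13 and −0.43 ± 0.14 (adjusted p = 0.107 and 0.0656, limma over all probe sets). Those values lie outside the interval of the first probe set given above, and the remaining Egfr probe sets lay between −0.16 and 0.03. The mean of all 7 was lower in DKO than in control crypts by a difference of −0.16 (adjusted p = 0.0402).

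**Figure D2:**
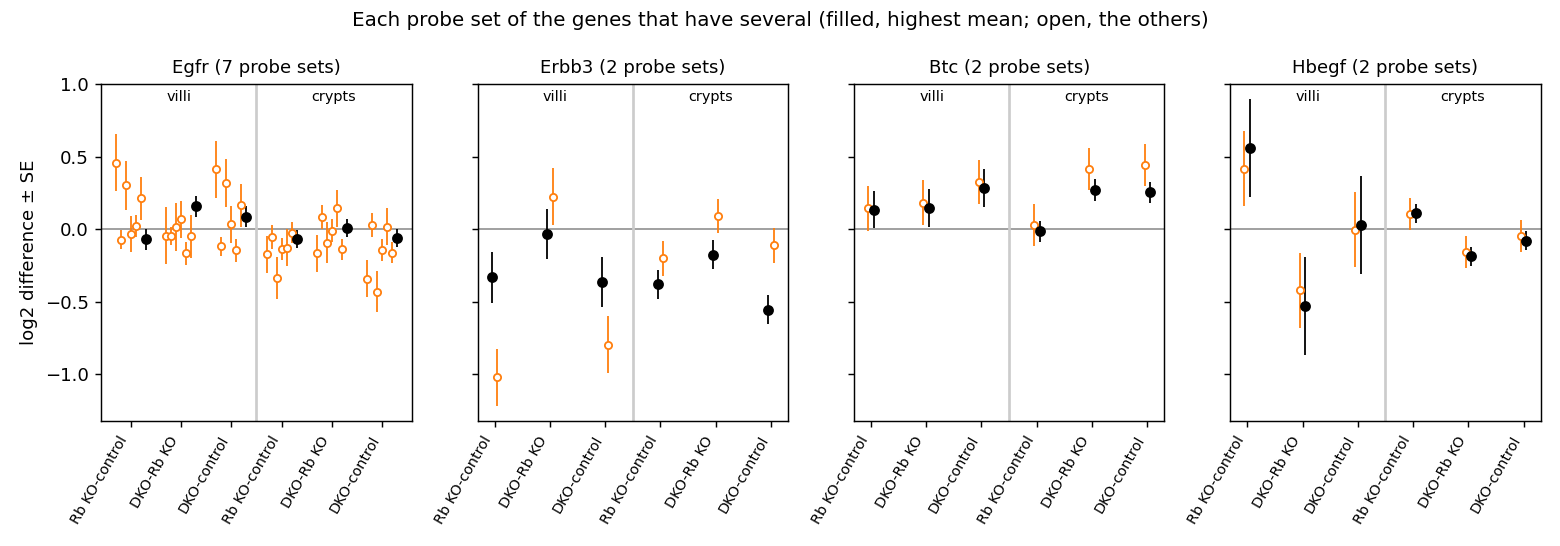
The log2 difference ± SE of each probe set of Egfr (7), Erbb3 (2), Btc (2) and Hbegf (2) is drawn for the 3 genotype comparisons in villi and in crypts. Filled points mark the probe set of highest mean and open points the others. The open Erbb3 point lies at −1.02 in Rb KO villi and the filled one at −0.33. The open Btc point lies at 0.44 in DKO against control crypts and the filled one at 0.26. For Hbegf in Rb KO villi they lie at 0.42 and 0.56.

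Among the ligands, Ereg (epiregulin, a ligand of Egfr and Erbb4 that is made by epithelial and stromal cells) showed the largest difference of any member. In villi its values were 5.78, 5.93, 5.28, 5.70 and 6.69 for control arrays, 6.61, 5.89, 6.61, 6.61 and 6.45 for Rb KO arrays and 7.62, 6.94, 7.31, 7.31 and 7.24 for DKO arrays. Each DKO array was above every Rb KO and control array, and control and Rb KO overlapped, with control replicate 5 above the highest Rb KO array. Rb KO replicates 1, 3 and 4 share an identical deposited value. Ereg was below the filter on low values, and in the fit without a filter it was higher in DKO than in control villi by 1.41 ± 0.21 (adjusted p = 2.5e-04), a ratio of 2.65, where 13.5% of all genes were past the threshold. It was higher in DKO than in Rb KO villi by 0.85 ± 0.21 (adjusted p = 0.0265, with 6.36% of all genes past), and the step from control to Rb KO was 0.56 ± 0.21 (adjusted p = 0.0671). That step passed without control replicate 5 (0.76, adjusted p = 0.0042), without Rb KO replicate 2 (0.69, 0.0238) and with all 30 arrays in the fit (0.0162). The DKO against Rb KO call was lost on leaving out Rb KO replicate 2 or DKO replicate 1, 3 or 4 (adjusted p from 0.0547 to 0.0605) and without Rb KO animals 4 and 5 (0.0714). The DKO against control call held in each of the 15 fits that left out 1 array, with differences from 1.26 to 1.61.

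In crypts Ereg stayed between 4.26 and 5.12 on the 15 arrays. Its means were 4.41 ± 0.11 for control, 4.61 ± 0.29 for Rb KO and 4.58 ± 0.08 for DKO, and no difference passed (adjusted p from 0.314 to 0.927). The effect of Myc loss on top of Rb loss differed between tissues by −0.88 ± 0.25 (crypts minus villi). The adjusted p was 0.0515 in the fit over all genes and 0.0284 with the animal as a block, in which 6.9% of all genes were past the threshold. Each crypt value of Ereg lay below the filter level of 6.03, and a change at such low values may not be fully measured. The part of this limit in the difference between tissues was not tested. Beside the villus values of Ereg, the mean marker level of myeloid cells, which can make Ereg, ranged from 6.91 to 7.27 on control arrays, 6.88 to 8.50 on Rb KO arrays and 7.11 to 8.27 on DKO arrays. It was 0.35 higher in DKO than in control (exact permutation p = 0.0873, adjusted 0.314) and 0.03 higher in DKO than in Rb KO, with 0 of 4 tested markers past the threshold. The fibroblast and mesenchyme score differed by −0.01 between DKO and control villi (exact permutation, adjusted p = 0.984). Between DKO and Rb KO villi it differed by −0.31 (adjusted p = 0.748). The part of these cells in the Ereg difference was not tested.

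Btc (betacellulin, a ligand of Egfr and Erbb4) was higher in DKO crypts. Its crypt values were 7.91, 7.67, 7.71, 7.77 and 7.70 for control arrays, 7.86, 7.76, 7.74, 7.68 and 7.64 for Rb KO arrays and 7.88, 8.08, 8.12, 8.15 and 7.82 for DKO arrays. Control and Rb KO arrays covered the same range, and DKO replicates 2, 3 and 4 lay above it while replicates 1 and 5 lay within it. Btc was higher in DKO than in Rb KO by 0.27 ± 0.07 (adjusted p = 0.0186) and than in control by 0.26 ± 0.07 (adjusted p = 0.0156), ratios of 1.21 and 1.19, and Rb KO differed from control by −0.01 (adjusted p = 0.924). The second probe set gave 0.41 ± 0.15 and 0.44 ± 0.15 in the same comparisons (adjusted p = 0.107 and 0.0644 over all probe sets). In villi the means were 7.71 ± 0.22, 7.84 ± 0.24 and 7.99 ± 0.22, and no difference passed (adjusted p from 0.149 to 0.513).

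The crypt marker score, the mean of 9 stem and Paneth cell genes, was 12.3 to 12.8 on control arrays of crypts, 12.1 to 12.5 on Rb KO arrays and 12.4 to 12.8 on DKO arrays. It was 0.30 higher in DKO than in Rb KO (exact permutation p = 0.0159, adjusted 0.143), and 3 of its 9 genes were past the threshold, all of them higher. With this score as a covariate the Btc difference between DKO and Rb KO was 0.18 (adjusted p = 0.195), and the differences between Rb KO and control crypts were −0.24 for Erbb2 (adjusted p = 0.0638) and −0.29 for Erbb3 (adjusted p = 0.110). The Btc call for DKO against control crypts was kept with this score. Without Rb KO animals 4 and 5 the Btc difference between DKO and Rb KO was 0.22 (adjusted p = 0.115). With all 30 arrays in the fit neither Btc call passed (adjusted p = 0.127 against Rb KO and 0.113 against control).

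Hbegf (heparin-binding EGF, a ligand of Egfr and Erbb4) varied widely within each genotype in villi. It ranged from 8.16 to 9.89 with control, from 8.70 to 10.45 with Rb KO and from 8.43 to 9.52 with DKO genotype, and all 3 groups overlapped. The difference of Rb KO from control was 0.56 with a 95% interval of −0.18 to 1.30 (adjusted p = 0.236), so neither no change nor a doubling is outside it. In crypts it ranged from 7.39 to 7.85 over the 15 arrays, and DKO differed from Rb KO by −0.19 ± 0.06 (adjusted p = 0.0613).

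Epgn (epigen, an Egfr ligand) was higher in Rb KO than in control crypts. Its values there were 5.76, 5.76, 5.91, 5.66 and 5.76 for control arrays, 6.0, 5.99, 6.13, 5.93 and 5.94 for Rb KO arrays and 5.78, 6.06, 5.96, 6.0 and 5.87 for DKO arrays. Each Rb KO array was above each control array, and DKO overlapped both. The difference was 0.23 ± 0.06 (adjusted p = 0.0359 without the filter, with 7.65% of all genes past), and it lost the call in 7 of the 15 fits that left out 1 array (adjusted p up to 0.104), without Rb KO animals 4 and 5 (0.27, adjusted p = 0.0613), with the crypt marker score (0.0854) and with all 30 arrays in the fit (0.261). In villi Epgn ranged from 5.18 to 6.03 with no difference between genotypes past the threshold. Nrg1 (neuregulin 1, a ligand of Erbb3 and Erbb4) stayed between 3.33 and 3.77 in villi and between 3.58 and 4.07 in crypts, and its differences were at most 0.11 in size (adjusted p from 0.338 to 0.909).

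**Figure D3:**
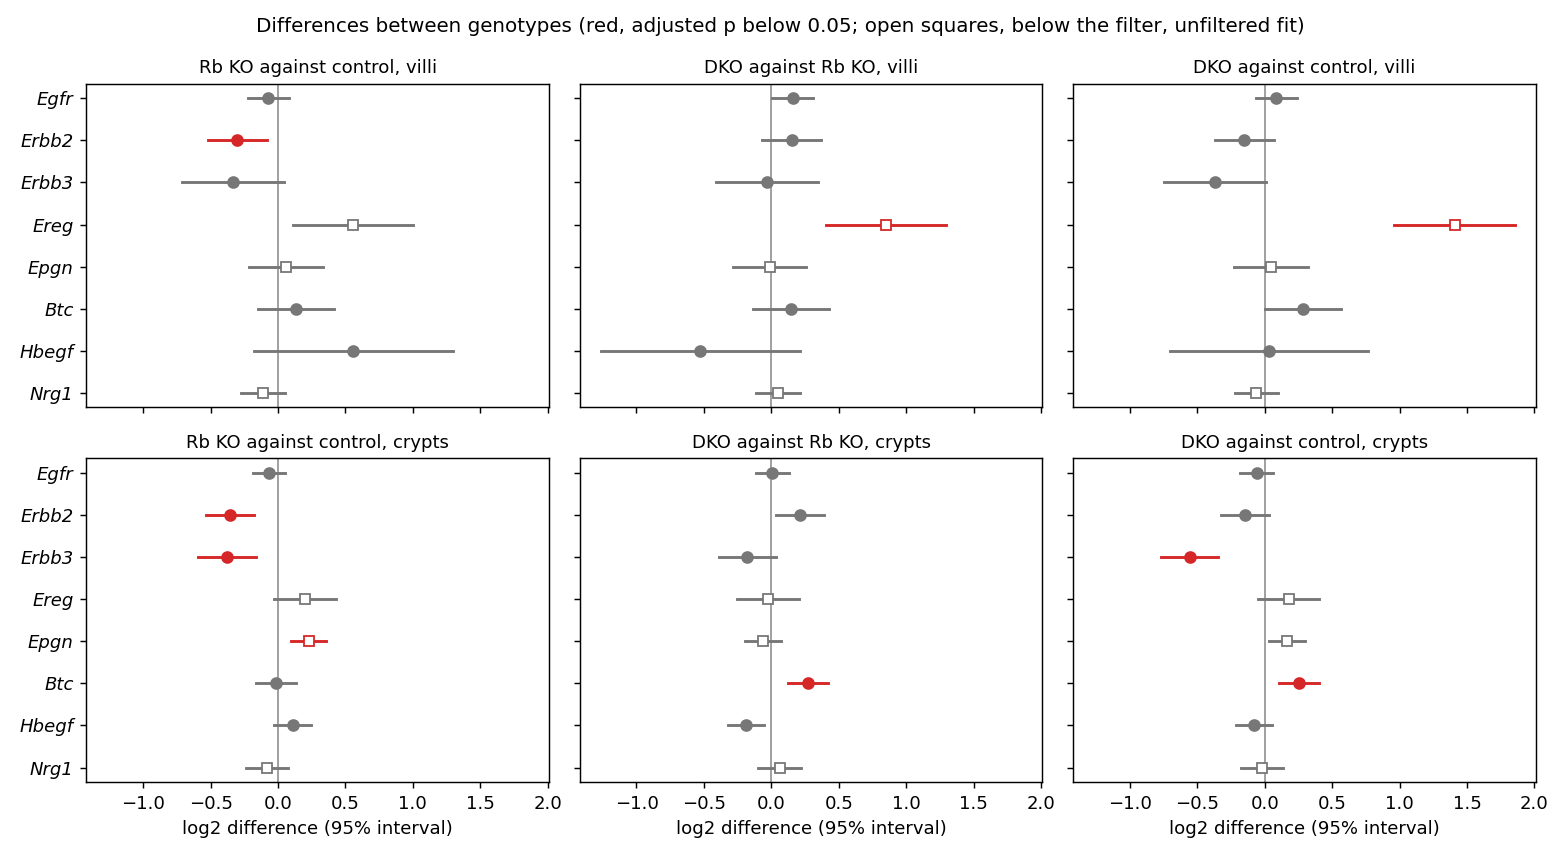
Each panel shows 1 genotype comparison in villi (top) or crypts (bottom), with the log2 difference of each member and its 95% interval. Red marks an adjusted p below 0.05, and open squares mark Ereg, Epgn and Nrg1, which were fitted without the filter. Ereg reaches 1.41 in DKO villi and Erbb3 −0.56 in DKO crypts.

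The difference between tissues was tested directly over all 30 arrays. For the effect of Rb loss 0 of the 5 tested members were past the threshold, against 16.2% of all genes, and for the effect of Myc loss on top of it 0 of 5, against 3.73%. None of the 5 had an unadjusted p under 0.05 in either test. The difference in the effect of Rb loss was −0.06 for Erbb2 (95% interval −0.33 to 0.22) and −0.05 for Erbb3 (−0.48 to 0.39), and the difference in the effect of Myc loss was 0.12 for Btc (−0.19 to 0.44). These fits did not pair the villi and crypts taken to be from the same animal. With the animal as a block the count was again 0 of 5 for each effect, with 3027 and 1253 of all tested genes past the threshold. The lower Erbb3 and the higher Btc in crypts are thus not shown to be specific to crypts.

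The remaining receptors and ligands of the family were Erbb4, Egf, Tgfa, Nrg2, Nrg3 and Nrg4, of which Tgfa, Nrg2 and Nrg4 were above the filter. Tgfa (transforming growth factor alpha, an Egfr ligand) was higher in both mutant crypts. Its crypt values were 8.63, 8.79, 8.69, 8.61 and 8.71 for control arrays, 8.90, 8.90, 9.01, 8.87 and 9.04 for Rb KO arrays and 9.14, 9.24, 8.87, 9.07 and 8.94 for DKO arrays. Each mutant array was above each control array, by a difference of 0.26 ± 0.07 in Rb KO (adjusted p = 0.0182) and 0.37 ± 0.07 in DKO (adjusted p = 9.1e-04). The Rb KO call for Tgfa was lost with the mean of its probe sets (0.14, adjusted p = 0.0893), with the crypt marker score (0.19, 0.103), without Rb KO animals 4 and 5 (0.25, 0.0744), with all 30 arrays in the fit (0.0539) and without Rb KO replicate 3 (0.24, 0.0512), while the DKO call was kept in each alternative run for it. In villi Tgfa ranged from 8.56 to 9.21 with no call. Nrg2 and Nrg4 made no call in any comparison, with crypt means of 6.93 to 7.04 and of 6.88 to 7.04. Erbb4, the fourth receptor of the family, stayed between 3.08 and 3.62 on all arrays, Nrg3 had group means from 3.63 to 4.59, and Egf had group means from 4.49 to 4.55 in villi and from 5.75 to 5.93 in crypts.

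Among the proteases that release the ligands and their cofactors, 9 of 13 listed genes were tested. In villi 2 were higher and 1 lower in Rb KO than in control, with the same counts in DKO, and in crypts 1 was higher in each mutant. These are shares of 33.3% in each villus comparison with control, against 34.3% and 19.3% of all genes, and of 11.1% in each crypt comparison with control, against 12.1% and 23.3%. Between DKO and Rb KO 0 passed in villi and 0 in crypts, against 8.52% and 14.2% of all genes. Rhbdl2, a rhomboid protease, was higher in Rb KO than in control by 0.50 ± 0.12 in villi and by 0.62 ± 0.09 in crypts, and in DKO by 0.61 ± 0.12 and 0.40 ± 0.09 (adjusted p from 2.4e-04 to 0.00528). Rhbdf2, which carries the protease Adam17 to the cell surface, fell by 0.26 ± 0.07 in Rb KO and by 0.33 ± 0.07 in DKO villi. Adam10, which sheds Btc, was higher in Rb KO villi by 0.47 ± 0.08, but the mean of its probe sets differed by 0.13 (adjusted p = 0.0896).

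Of 30 listed inhibitors and feedback regulators, 27 were tested. In villi 2 were higher and 4 lower in Rb KO than in control, 2 higher and 0 lower in DKO than in Rb KO, and 2 and 2 in DKO against control. In crypts the counts were 2 and 1, 2 and 1, and 4 and 3 in the same order. The shares past the threshold were 22.2%, 7.41% and 14.8% in villi, against 34.3%, 8.52% and 19.3% of all genes, and 11.1%, 11.1% and 25.9% in crypts, against 12.1%, 14.2% and 23.3%. Dusp6, the phosphatase that inactivates ERK, was higher in DKO crypts (9.20 ± 0.18, SD, n = 5) than in Rb KO crypts (7.99 ± 0.36), by 1.21 ± 0.19 (adjusted p = 5.7e-04), and than in control crypts (7.62 ± 0.40) by 1.58 ± 0.19 (adjusted p = 2.4e-05). The DKO arrays did not overlap either group, and in villi Dusp6 was higher in DKO than in control by 1.09 ± 0.35 (adjusted p = 0.0391, lost on leaving out any of 7 of the 15 arrays). Errfi1, a direct inhibitor of Egfr and Erbb2, was higher in Rb KO than in control crypts by 0.46 ± 0.13 (adjusted p = 0.0299, lost in 6 of the 15 fits that left out 1 array, with the crypt marker score at 0.125 and without Rb KO animals 4 and 5 at 0.119), and Lrig2 fell by 0.30 ± 0.06 there (adjusted p = 0.00418). In villi Cblc, a ubiquitin ligase that marks receptors for degradation, fell by 0.65 ± 0.09 with Rb loss (adjusted p = 9.3e-05) and was lower in DKO than in control, at −0.36 ± 0.09 (adjusted p = 0.0146, 0.0603 with the crypt marker score). Rnf41, the ubiquitin ligase of Erbb3, fell by 0.28 ± 0.06 in DKO villi and by 0.24 ± 0.06 in DKO crypts against control (adjusted p = 0.00658 and 0.0102).

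Of 49 adaptors and kinases of the pathway, 40 were tested. In villi 4 were higher and 10 lower in Rb KO than in control, a share of 35% against 34.3% of all genes, with 1 higher and 0 lower in DKO than in Rb KO and 3 and 1 in DKO against control. The latter shares were 2.5% and 10%, against 8.52% and 19.3% of all genes. In crypts the counts were 3 and 0, 3 and 3, and 7 and 0, shares of 7.5%, 15% and 17.5% against 12.1%, 14.2% and 23.3%. The PI3 kinase subunit genes Pik3cb and Pik3r3 were among those higher in DKO than in control crypts, by 0.38 ± 0.08 and 0.71 ± 0.11 (adjusted p = 0.00198 and 3.1e-04), and Pik3cb was higher in Rb KO crypts by 0.52 ± 0.08 (adjusted p = 3.9e-04). Eps8, an Egfr substrate, was higher in DKO than in Rb KO crypts by 0.26 ± 0.07 (adjusted p = 0.0235), a call lost in 4 of the 15 fits that left out 1 array (up to 0.0635), with the crypt marker score, without Rb KO animals 4 and 5 and with all 30 arrays (0.0769 to 0.0809). In Rb KO villi Pik3r2, Araf and Vav2 fell by 0.44 ± 0.09, 0.39 ± 0.07 and 0.41 ± 0.09, with Araf at −0.15 (adjusted p = 0.0353) in the mean of its probe sets. Ptpn11, the phosphatase SHP2, was higher there by 0.37 ± 0.07 (adjusted p = 5.1e-04), though the mean of its probe sets differed by 0.13 (adjusted p = 0.146).

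Transcripts that ERK signalling is known to induce were tested for 16 of 21 listed genes. In DKO crypts 3 were higher and 4 lower than in Rb KO, and 6 higher and 1 lower than in control, 43.8% of the tested members in each case against 14.2% and 23.3% of all genes, with a median difference over the list of 0.05 and 0.02 against 0.00 and 0.01 over all tested genes. Leaving out 1 array at a time gave 3 to 6 higher and 1 to 2 lower for DKO against control. The members thus moved in both directions. Etv4, an ETS transcription factor, was higher in DKO crypts (8.82 ± 0.29) than in Rb KO crypts (7.62 ± 0.32), by 1.21 ± 0.15 (adjusted p = 1.3e-04), and than in control by 1.31 ± 0.15. The mean of the Etv4 probe sets gave 0.71 and 0.80 in these comparisons, both past the threshold. Ccnd1 (cyclin D1) fell by 0.92 ± 0.12 against Rb KO (adjusted p = 1.2e-04) and fell by 1.37 ± 0.12 against control (adjusted p = 1.9e-06), with no overlap of the arrays. Klf6 and Junb fell by 0.46 ± 0.09 and 0.26 ± 0.07 against Rb KO (Junb lost the call with the crypt marker score, without Rb KO animals 4 and 5 and with all 30 arrays, adjusted p from 0.0871 to 0.216), while Phlda1 and Ier3 were higher than in control by 0.93 ± 0.20 and 0.42 ± 0.12. Between Rb KO and control crypts 1 was higher and 1 lower, a share of 12.5% against 12.1% of all genes. In villi 2 were higher and 1 lower in Rb KO than in control, and 0 passed between DKO and Rb KO. Those shares were 18.8% and 0% against 34.3% and 8.52% of all genes. In DKO against control villi 2 were higher and 0 lower, a share of 12.5% against 19.3%. Against control, Ier3 was higher in Rb KO villi by 0.44 ± 0.11 and in DKO villi by 0.45 ± 0.11 (adjusted p = 0.00566 and 0.0095).

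**Figure D4:**
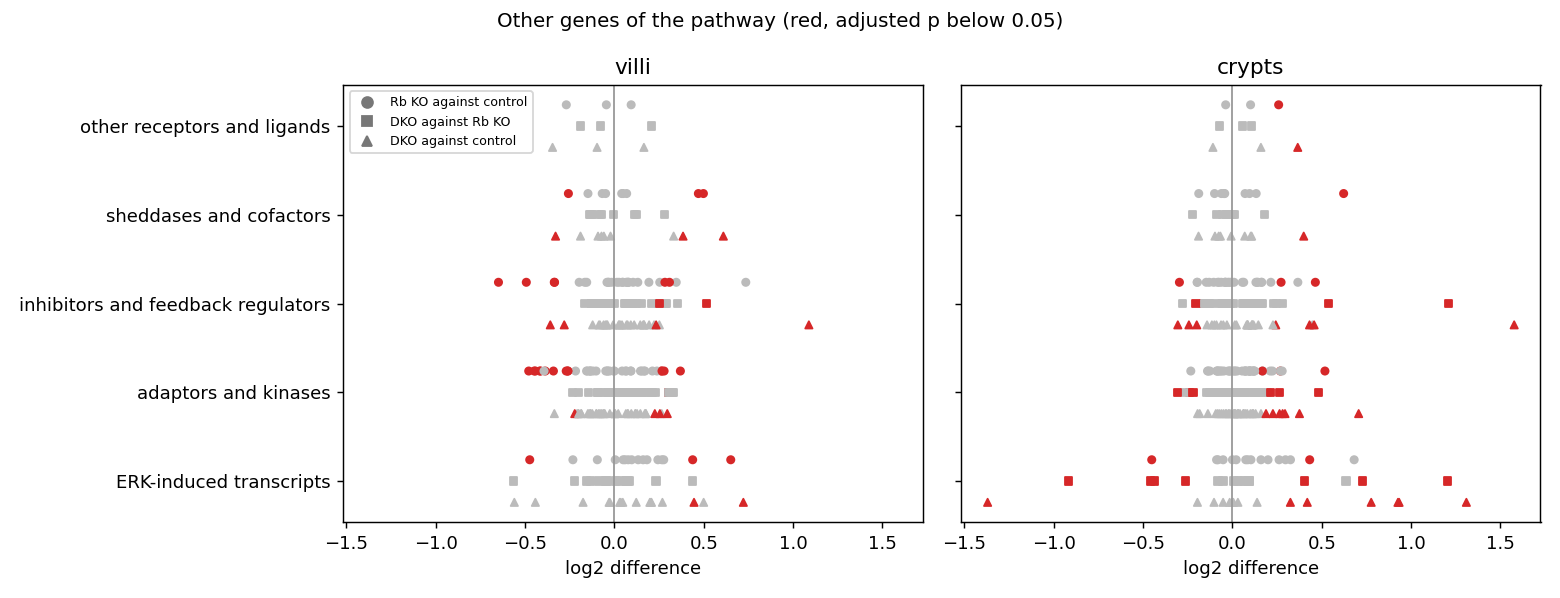
Each point is 1 tested gene of the 5 pathway lists, at its log2 difference in villi (left) and crypts (right), with circles for Rb KO against control, squares for DKO against Rb KO and triangles for DKO against control. Red marks an adjusted p below 0.05. In crypts the widest red points are Dusp6 at 1.58 and Ccnd1 at −1.37, both in DKO against control.

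The search for genes of like pattern covered 12144 other tested genes for each called member, with symbols of unnamed clones left out. Among them, genes whose pattern over the 15 crypt arrays was most like that of a called member were found by Pearson correlation, as a description over arrays that share their groups. For Erbb2 these were Ube3b (r = 0.934), Abcc10 (0.925) and Slc29a3 (0.909). For Erbb3 they were Jmy (0.910), Tmem205 (0.905) and Hdac11 (0.900), and for Btc Otulinl (0.935), Camsap2 (0.892) and Fyn (0.878).

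Other cell types were read through 15 marker lists. Between genotypes 0 of 90 score differences passed after adjustment (exact permutation tests, two-sided, smallest possible p = 0.00794, smallest adjusted p = 0.143), and 16 had an unadjusted p under 0.05. With that smallest possible p and 90 tests, a score difference could pass only if many others were equally small. The count of 0 therefore does not show that the cell types were unchanged. T cell markers were lower in Rb KO than in control villi by a difference of −0.60, with 5 of 5 genes past the threshold in the gene-wise fit, and higher in DKO than in Rb KO villi, where Ereg differed, by 0.59 (3 of 5). Enteroendocrine markers in villi were at −0.63 in Rb KO against control (3 of 6 genes past, all lower) and 0.57 in DKO against Rb KO (3 of 6, all higher). Exocrine pancreas markers were at −0.44 in Rb KO against control villi (1 of 3), 0.89 in DKO against Rb KO villi (2 of 3) and 0.45 in DKO against control villi (1 of 3). In crypts the T cell score was 0.55 higher in DKO than in control (2 of 5) and 0.46 higher in DKO than in Rb KO (1 of 5), the comparisons in which Btc was called. Paneth cell markers were 0.36 higher in DKO than in Rb KO crypts (2 of 4) and 0.15 higher than in control (1 of 4), and tuft cell markers were 0.28 higher than in Rb KO (0 of 4). Enteroendocrine markers in crypts were at −0.43 in Rb KO (3 of 6 past, in both directions) and −0.31 in DKO against control (1 of 6). The remaining score differences of that size of p were the crypt marker score given above and nerve and glia markers, 0.09 higher in DKO than in Rb KO crypts. The part of these cells in the differences of the family members was not tested.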

How the data were processed

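Total RNA of 30 samples was measured on arrays after biotin labelling, per the labels' protocols. The deposited values are log2 expression values for 45101 probe sets, and the authors' normalization and summarization are not given in the sources used here. Identical values numbered 285 to 596 between any 2 arrays of a tissue and at most 1 between arrays of different tissues, so the tissues were taken as normalized separately. Array values have no read depth, and 5 arrays per group limit the precision.

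Members and gene lists were chosen with earlier results of these data known. Of the probe sets, 34958 have a single gene symbol. Linear models were fitted with limma 3.58.1 in R 4.3.3 over the 15 arrays of a tissue, without covariates, with two-sided Benjamini-Hochberg adjustment. The difference between tissues was an interaction over 30 arrays. The code was tested on simulated data. Named were all members, Rb1 and Myc, the list of other receptors and ligands, from each other pathway list the 4 genes of smallest p among those past the threshold in a comparison (the text takes some of these), and the 3 genes of most similar pattern for each called member. Symbols of unnamed clones were left out of the search for similar patterns. Replicate numbers of villi and crypts of a genotype deviated together (r from 0.261 to 0.580 in 15 of 15 cases, 14 of them highest for the own number) and were taken to mark the same animal. Alternatives covered probe set choice, filters, quantile normalization, arrays in the fit, limma's trend and robust settings, a replicate block, the crypt marker score or Xist as a covariate, a threshold of 0.01 and leaving out single arrays or Rb KO animals 4 and 5, which an earlier description of these data set apart. Xist, a transcript of female cells, varied widely within each group (from 6.45 to 13.18 in Rb KO villi, for example), so both sexes may be present. Figures were drawn with matplotlib 3.10.9.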

Additional observations from a re-analysis of the deposited data

Results flagged for a closer look

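Of 48 sets of 5 arrays (8 members in 6 groups), 5 held a sample whose gap to the nearest other exceeded Dixon's critical value of 0.71 of the range, where chance gives about 1 in 20. Egfr was 8.90 in control villi replicate 1, and the other 4 arrays were at 8.66 to 8.72. Ereg was 5.89 in Rb KO villi replicate 2 against 6.45 to 6.61, 5.12 in Rb KO crypts replicate 3 against 4.41 to 4.54, and 4.72 in DKO crypts replicate 4 against 4.51 to 4.57. Nrg1 was 3.41 in DKO villi replicate 1 against 3.53 to 3.55. No cause was tested for these values.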

How the results depend on the processing

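Over the differences of the 5 members above the filter, 1265 values kept their side of the threshold, 29 lost a call and 10 gained one. Of 1134 alternative values for differences uncalled as reported, 61 had the other sign, and these are among the 1265. For Ereg, Epgn and Nrg1, fitted without the filter, 389 values kept their side, 15 lost a call and 4 gained one. Changes of sign among their uncalled values were not counted. The number of members past the threshold moved as follows. Between Rb KO and control villi (1 as reported) it was 2 with the mean of probe sets or the replicate block, 0 with the crypt marker score, a threshold of 0.01 or without Rb KO animals 4 and 5, and 0 to 1 on leaving out 1 array. Between DKO and Rb KO villi (0) it was 1 (Ereg) without the filter or with a lower filter chosen after seeing the data (the 30th percentile of all probe sets, 5.33). Between DKO and control villi (0) it was 1 with the mean of probe sets or the replicate block (both Erbb3), 1 with either of those filters (Ereg), and 0 to 1 on leaving out 1 array, 1 without DKO replicate 2 (Erbb3 −0.50, adjusted p = 0.0454). Between Rb KO and control crypts (2) it was 0 with the crypt score, at 0.01 or without Rb KO animals 4 and 5, 1 with all 30 arrays in the fit, 3 (Epgn added) with the mean of probe sets or either of those filters, and 1 to 2 on leaving out 1 array. Between DKO and Rb KO crypts (1) it was 0 with the crypt score, at 0.01, without those animals or with all 30 arrays, and 1 to 2 on leaving out 1 array, the second being Erbb2 (0.27, adjusted p = 0.0443, without Rb KO replicate 1) or Hbegf (−0.24, 0.0198, without Rb KO replicate 3). Between DKO and control crypts (2) it was 1 at 0.01 or with all 30 arrays, and 3 (Egfr added) with the mean of probe sets. For the tissue difference in the effect of Myc loss (0) it was 1 with the lower filter (Ereg, adjusted p = 0.0471, with the limit from its low crypt values given above). With the replicate block Erbb3 passed in villi (adjusted p = 0.0228 for Rb KO, 0.0242 for DKO against control), but same-numbered arrays of different genotypes were not taken as pairs, since the labels name no shared animal or batch and only 8 of 15 correlations of their deviations exceeded 0.1 in villi (median 0.19, with all 3 above it for numbers 2 and 4) and 4 of 15 in crypts (median −0.01). The cause of these shifts was not tested, except that a stricter threshold lowers calls by construction. Leaving out 1 array gave both fewer and more calls over all genes, as in 3705 to 4675 between Rb KO and control villi (4374 as reported). Calls over all genes moved by over 1.5 times in some settings. At 0.01 they were 2876 and 1302 in Rb KO and DKO villi against control, 707, 766 and 1682 in crypts (Rb KO against control, DKO against Rb KO, DKO against control), 948 and 84 for the tissue differences, and 1.98% of all genes in place of 8.52% for DKO against Rb KO villi. Without Rb KO animals 4 and 5 they were 583 for DKO against Rb KO villi (1085 as reported), 868 (1542) and 1188 (1804) for Rb KO against control and DKO against Rb KO crypts, and 1129 (2059) and 269 (475) for the tissue differences of Rb and Myc loss. With all 30 arrays they were 2002, 986 and 1125 in these 3 within-tissue comparisons. On leaving out DKO villi replicate 1, 2, 3 or 4 that comparison of DKO with Rb KO villi had 722, 668, 542 or 690, and the tissue difference of Myc loss had 305 without DKO villi replicate 3, 289 and 275 without Rb KO crypts replicates 1 and 3, and 285 and 300 without DKO crypts replicates 1 and 3. The crypt score gave 2505 for DKO against Rb KO villi and 948 for the tissue difference of Myc loss, where a filter at the 50th percentile gave 309 and the animal block 1253. Ptpn11 in DKO against control villi turned to −0.0037 (adjusted p = 0.977) with the mean of its probe sets, from 0.23 as reported.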
